A study of Mus musculus with 26 samples.

Results

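Gastruloids of a mouse line named for a shortened CBS insertion were compared with gastruloids of a line named for an inverted one, across all genes, at 120h after aggregation. A gastruloid is an aggregate of embryonic stem cells that elongates in culture and forms trunk and tail tissues. The comparison holds 4 of the 26 libraries of the series. They are the 2 replicates labelled Ins(CBS5-10):Del(CBS7-10), called InsDel7to10 here, and the 2 replicates labelled Inv(CBS5-10) clone 2, called InvClone2 here. All 4 carry the library name ISML_third, which 10 libraries of the series share. The libraries were chosen by these labels and not by measured values.

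In both lines the HoxB cluster has the alleles Del/Del(i9-13) and Ins(CBS5-10). InsDel7to10 adds Del(CBS7-10), so that by name CBS5 and CBS6 are left, while InvClone2 adds the inversion Inv(CBS5-10). The labels do not define i9-13 or CBS, nor how much of HoxB the allele Del lacks. There is no unedited line in the comparison. InvClone2 is by its name a single clone, and for InsDel7to10 the labels give no number of clones. Whether the replicates are separate cultures is not stated, and p-values cover only the spread among libraries, which may be technical.

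HoxB is a row of transcription factor genes that are switched on in sequence along the body axis, from Hoxb1 at one end to Hoxb13 at the other. Hoxb13 lies apart from the rest of the cluster, and its product restrains the extension of the tail. CTCF, which the title of the series names, is a DNA-binding protein that halts cohesin on chromatin in an orientation-dependent way and can thereby keep neighbouring genes and enhancers apart.

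Total counts of the 4 libraries ran from 18746411 to 25112854, against 19942377 to 37716547 in the other 22. Mitochondrial genes took 0.716% to 1.08% of the counts. The InsDel7to10 replicates differed from each other by a chi-square of 55.7 per degree of freedom, against 21.0 for the InvClone2 replicates and 26.3 to 49.2 for pairs across the lines. By this measure each InsDel7to10 library was closer to both InvClone2 libraries than to its own replicate. The values were 34.3 and 26.3 for replicate 1 and 36.5 and 49.2 for replicate 2. Genes of paraxial mesoderm marked all 4 libraries: Meox1, a somite transcription factor, had 696 and 770 CPM (counts scaled to library size) in InsDel7to10 and 533 and 600 CPM in InvClone2, and the tailbud factor T had 46.1 and 36.6 CPM against 63.8 and 75.4 CPM.

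Hoxb13, at chromosome 11, 96194316 to 96197447 (mm10), had 4.72 and 2.24 CPM in InsDel7to10 and 0.732 and 0.706 CPM in InvClone2. Both InsDel7to10 libraries were above both InvClone2 libraries, and the InsDel7to10 replicates differed from each other more than the InvClone2 replicates did. The means were 3.48 ± 1.75 CPM and 0.719 ± 0.0184 CPM (SD, n = 2 each), a log2 fold change of 2.26 ± 0.54 (± SE). The difference did not pass the threshold of 0.05 over all genes (edgeR quasi-likelihood test, Benjamini-Hochberg adjusted p = 0.175, unadjusted p = 0.00122). Over the 15 alternative fits the adjusted p ran between 1.69e-07 and 0.842. It passed in 3 of them, among them DESeq2 (0.00394). Of the other 22 libraries of the series, 8 were above both InsDel7to10 libraries and 14 below both. At 120h the line with Del/Del(i9-13) and no insertion had 62.2 ± 27.6 CPM (n = 3). InsDel5to10, whose insertion is followed by Del(CBS5-10), had 28.6 ± 10.1 CPM (n = 2), and the single library of InvDel7to10, which joins the inversion to Del(CBS7-10), had 5.08 CPM. Below InsDel7to10 were the line with the insertion alone (0.809 ± 0.459 CPM, n = 3), the single library whose insertion is followed by Del(CBS8-10) (0.622 CPM) and clone 1 of the inversion, InvClone1 (0.507 ± 0.349 CPM, n = 4). Among these lines InsDel5to10 alone has all its libraries under the name ISML_third, and levels across library names were not tested.

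The rest of the cluster gave no gene past the threshold. Hoxb9, which in FPKM (fragments per kilobase of transcript and unit of depth, as deposited) was the most abundant HoxB gene in all 4 libraries, had 190 and 243 CPM in InsDel7to10 and 390 and 183 CPM in InvClone2. Its groups overlapped, and its log2 fold change of -0.40 ± 0.47 was the only negative one in the cluster. Hoxb2 had 32.97 and 11.7 CPM against 14.1 and 15.3 CPM, again with overlap. Hoxb5, with 5.49 and 3.34 CPM in InsDel7to10 and 2.74 and 3.06 CPM in InvClone2, and Hoxb3, with 54.0 and 34.9 CPM against 30.7 and 32.9 CPM, did not overlap. Their log2 fold changes were 0.60 ± 0.35 and 0.48 ± 0.26 (adjusted p = 0.680 and 0.636). The median log2 fold change of the 10 HoxB genes was 0.45, against -0.013 over all genes tested. This did not separate the libraries. The median log2 CPM of the 10 was 4.81 and 3.70 in InsDel7to10 and 3.72 and 4.03 in InvClone2. Their sums were 432 and 389 CPM against 559 and 324 CPM. Groups did not overlap for 3 of the 10, each higher in InsDel7to10, against 15.3% of all genes tested. None of 25 genes flanking the cluster passed. Nearest to the threshold was Cbx1, a heterochromatin protein gene (edgeR adjusted p = 0.275). It had 186 and 179 CPM in InsDel7to10 and 142 and 131 CPM in InvClone2. Most of the 25 went the other way: 4 were positive, and the median log2 fold change was -0.18. Groups did not overlap for 9 with InsDel7to10 lower and 1 with it higher, against 18% and 15.3% of all genes tested. B4galnt2 had 0 and 0 counts in InsDel7to10 and 6 and 5 counts in InvClone2.

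**Figure D1:**
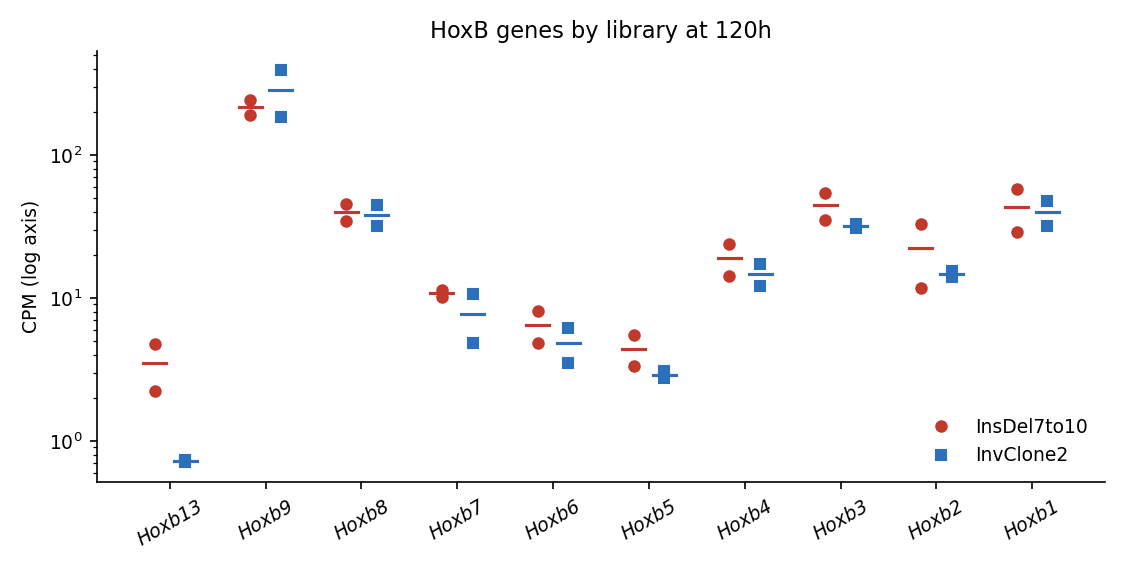
Level of each HoxB gene in CPM (log axis) in the InsDel7to10 libraries (circles) and the InvClone2 libraries (squares), with bars at the mean of 2. Hoxb13 stands at 4.72 and 2.24 CPM against 0.732 and 0.706 CPM, while the levels of Hoxb9, Hoxb8, Hoxb7, Hoxb6, Hoxb4, Hoxb2 and Hoxb1 overlap between the lines.

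Across the genome 25 of 17769 genes tested passed the threshold (0.141%). Of these 20 were higher in InsDel7to10 (0.113%) and 5 were lower (0.0281%). The 20 higher genes divide into 16 in a segment of chromosome 3 that begins at 91 Mb and spans 28 Mb (5.8% of 276 genes tested there), treated apart below, and 4 elsewhere. Outside the segment and the Y chromosome, 9 of 17486 genes passed (0.0515%). These calls depend on the fit. No gene passed without the term for library name, in a fit of the 10 ISML_third libraries or of the 4 libraries alone, or without either InvClone2 library. In those 5 fits 809, 988, 847, 1310 and 996 genes had an unadjusted p under 0.05, and in the fit with all 26 libraries 1587 did (8.93%), 715 of them higher (4.02%) and 872 lower (4.91%). Without replicate 1 or replicate 2 of InsDel7to10, 295 and 155 genes passed, and DESeq2 called 161.

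**Figure D2:**
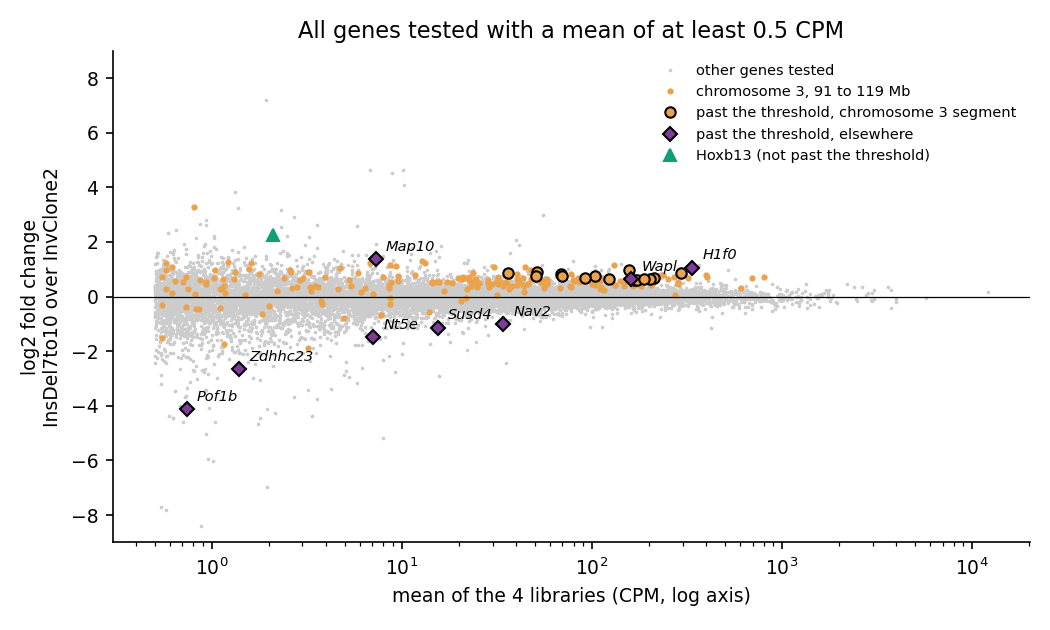
Log2 fold change of InsDel7to10 over InvClone2 against the mean of the 4 libraries in CPM (log axis), for genes tested with a mean of at least 0.5 CPM. Outlined points passed the threshold: 16 in the chromosome 3 segment, all above 0, and 9 elsewhere, with 1 in the segment and 1 elsewhere not drawn and 8 elsewhere named; Hoxb13 (triangle) has a larger fold change than most of them and did not pass.

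Of the 4 genes that rose outside the segment 3 are described. H1f0 (chromosome 15, 79028450 to 79030504) encodes the linker histone H1.0, which is known for accumulating in cells that leave the cell cycle. It had 474 and 435 CPM in InsDel7to10 and 220 and 215 CPM in InvClone2. The log2 fold change was 1.07 ± 0.12 (edgeR adjusted p = 0.0112), the smallest adjusted p of all genes. The InsDel7to10 libraries were above all other 22 libraries of the series, which had 213 to 370 CPM, and the InvClone2 libraries were at the lower end of that range. Map10 (chromosome 8, 125669818 to 125673359), which encodes a microtubule-associated protein, had 10.9 and 10.1 CPM in InsDel7to10 and 4.30 and 3.84 CPM in InvClone2, with 4.51 to 9.94 CPM in the other 22. Its log2 fold change was 1.36 ± 0.23 (adjusted p = 0.0451), and the lines lay on opposite sides of every other library.

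Wapl (chromosome 14, 34673928 to 34747983) encodes the factor that releases cohesin from chromatin. It had 183 and 210 CPM in InsDel7to10 and 124 and 126 CPM in InvClone2, a log2 fold change of 0.65 ± 0.11 (edgeR adjusted p = 0.0451). Here the InvClone2 libraries were the ones apart: the other 22 had 142 to 280 CPM, so that InsDel7to10 was within their range and InvClone2 below it. The adjusted p of Wapl ran between 2.20e-05 and 0.879 over the 15 alternatives, and it passed in 7.

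The 5 genes that fell were Zdhhc23, Nt5e, Susd4, Nav2 and Pof1b. Zdhhc23 (chromosome 16, 43965033 to 43979791), a palmitoyltransferase gene, had 0.329 and 0.429 CPM in InsDel7to10 and 1.97 and 2.86 CPM in InvClone2. Every one of the other 22 libraries, at 0.986 to 2.30 CPM, was above both InsDel7to10 libraries. The log2 fold change was -2.65 ± 0.46 (edgeR adjusted p = 0.0470). Susd4 (chromosome 1, 182763860 to 182896591), which encodes a membrane protein with the sushi domains of complement regulators, had 10.2 and 9.20 CPM in InsDel7to10 and 22.4 and 20.1 CPM in InvClone2 (log2 fold change -1.13 ± 0.18, adjusted p = 0.0451). The other 22 libraries, at 11.7 to 17.7 CPM, filled the space between the lines.

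Nav2 (chromosome 7, 48959097 to 49610090), a cytoskeletal gene of the neuron navigator family, had 22.1 and 23.1 CPM in InsDel7to10 and 45.5 and 45.6 CPM in InvClone2. Its log2 fold change was -1.01 ± 0.17 (edgeR adjusted p = 0.0451), and all other 22 libraries, at 23.9 to 77.8 CPM, were above both InsDel7to10 libraries. Nt5e (chromosome 9, 88327197 to 88372092) encodes CD73, the surface enzyme that makes adenosine from AMP. It had 3.29 and 4.15 CPM in InsDel7to10 and 10.2 and 10.7 CPM in InvClone2 (log2 fold change -1.48 ± 0.25, adjusted p = 0.0464). The other 14 libraries at 120h, at 5.08 to 11.4 CPM, were all above both InsDel7to10 libraries. Over the other 22 libraries Nt5e ran between 1.36 CPM (168h) and 32.8 CPM (96h), and the 5 below both InsDel7to10 libraries were from 144h or 168h. Pof1b (chromosome X, 112638431 to 112698651), known in humans for an actin-binding protein of epithelia, averaged under 1 CPM and is named after its values were seen. It had 0 and 3 counts in InsDel7to10 and 28 and 39 counts in InvClone2, a ratio of 0.0541 (95% exact interval 0.0109 to 0.165, counting error only; adjusted p = 0.0461).

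**Figure D3:**
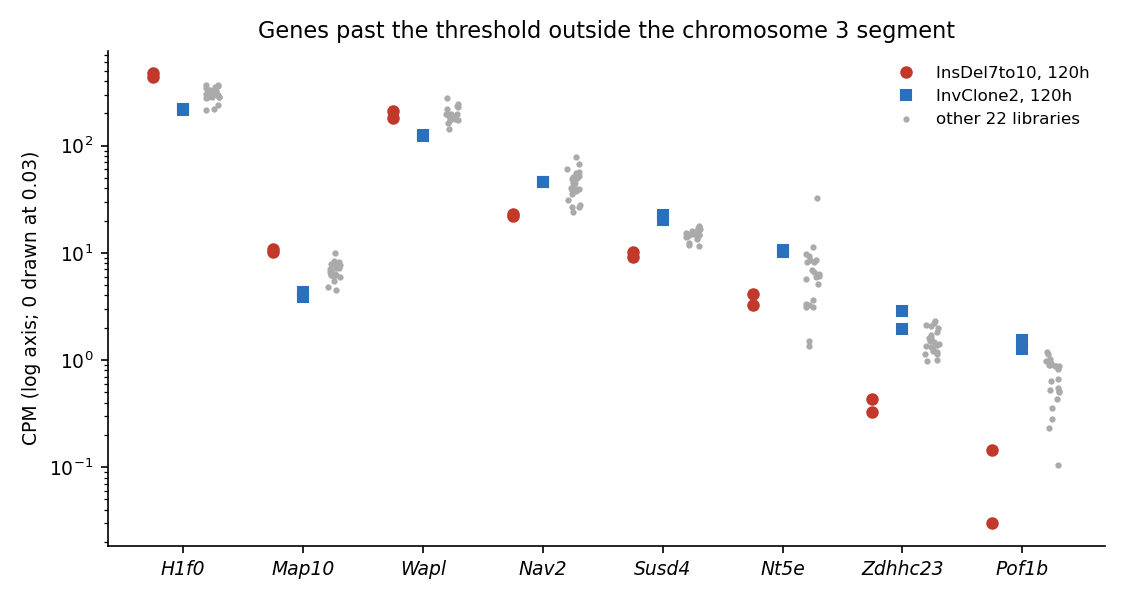
Levels in CPM (log axis, 0 drawn at 0.03) of 8 genes past the threshold outside the chromosome 3 segment, in the InsDel7to10 libraries (circles), the InvClone2 libraries (squares) and the other 22 libraries of the series (grey points). For H1f0 and Map10 the InsDel7to10 libraries are above all grey points, for Nav2, Susd4 and Zdhhc23 below all of them, and for Wapl the InvClone2 libraries are below all of them.

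H1f0, Map10, Wapl, Zdhhc23, Nt5e, Susd4 and Nav2 kept the direction of their fold change in the 15 alternatives. Among them H1f0 passed the threshold in 10 alternatives, Susd4 and Nav2 in 9, Map10 in 8, and Wapl, Zdhhc23 and Nt5e in 7. Of the genes that encode CTCF, cohesin, and cohesin's loaders and releasers, 1 of 15 passed, which was Wapl, against 0.141% of all genes tested. Ctcf itself had 220 and 254 CPM in InsDel7to10 and 226 and 222 CPM in InvClone2, with overlap between the lines. Hdac8, which removes an acetyl group from cohesin, had 8.29 and 10.2 CPM in InsDel7to10 and 6.45 and 5.76 CPM in InvClone2 (log2 fold change 0.60 ± 0.20, adjusted p = 0.396).

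Genes in the 28 Mb of chromosome 3 that begin at 91 Mb were mostly higher in InsDel7to10, from about 94 Mb on. The segment had been noticed in InsDel7to10 libraries in earlier work on the same files, so its level is a description and was given no test. Of 809 listed genes 276 passed the filter on low counts. Their median log2 fold change was 0.52, and 231 were positive. Groups did not overlap, with InsDel7to10 higher, for 171 of the 276 (62%), against 15.3% of all genes tested. At an unadjusted p under 0.05, 128 of the 276 were higher (46.4%) and 5 were lower (1.81%). Among the 131 with a mean of at least 10 CPM, 128 were positive, with a median of 0.58 and quartiles of 0.45 and 0.70. A median of 0.58 is a ratio of 1.49. The 3 exceptions, named after their values were seen, were Vangl1, S100a11 and the pseudogene Rplp0-ps1. S100a11 and Rplp0-ps1 lie below 94 Mb, where 3 of 6 genes in the bin from 92 Mb were positive. The rest of chromosome 3 had a median of 0.002 over 626 genes, and none passed.

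The shift set in and ended within a few Mb. Just below 91 Mb the nearest genes with a mean of at least 10 CPM, Ints3, Ilf2, Snapin and Chtop, had log2 fold changes of -0.10 to 0.26. In bins of 2 Mb, over genes tested with a mean of at least 1 CPM, the median was 0.099 at 92 to 94 Mb (6 genes) and 0.57 at 94 to 96 Mb (48 genes). It stayed between 0.40 and 1.00 in every bin up to 118 Mb, some of which held fewer than 6 genes, and was 0.25 at 118 to 120 Mb (5 genes) and 0.069 at 120 to 122 Mb (8 genes). Of 220 windows of 10 Mb with at least 20 such genes, the 3 that touch the segment had medians of 0.52, 0.56 and 0.50, while the other 217 were between -0.17 and 0.12. Relative to the median of all libraries, and over genes with a mean of at least 10 CPM in the series, the segment stood at 0.57 and 0.58 on the log2 scale in the InsDel7to10 libraries and between -0.16 and 0.11 in the other 24. In the deposited FPKM, 145 segment genes at 1 FPKM or more in all 4 libraries had a median ratio of 1.48, against 0.998 for 10180 genes elsewhere.

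**Figure D4:**
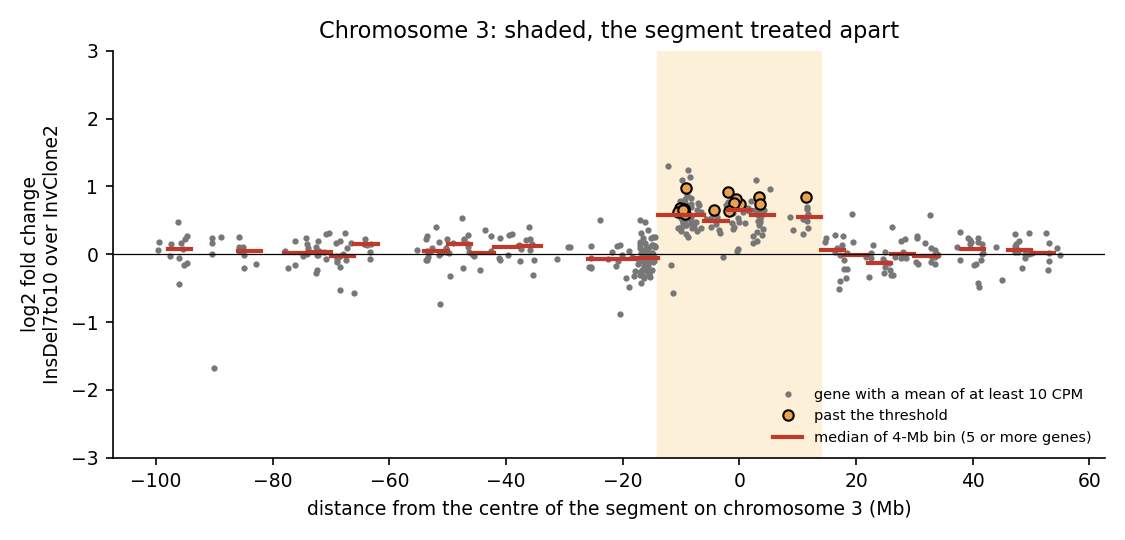
Log2 fold change of InsDel7to10 over InvClone2 for chromosome 3 genes with a mean of at least 10 CPM, by distance in Mb from the centre of the segment (shaded). Bars are medians of 4-Mb bins with 5 or more genes; bins inside the segment lie near the segment's median of 0.58, bins outside near 0, and the outlined genes passed the threshold, with 1 of the 16 that did so not drawn and left out of its bin.

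The 16 segment genes that rose include Sike1, Sort1, Car14, Cttnbp2nl, Arnt, Setdb1, Snx27, Pogz, Ensa, Man1a2, Bcas2, Phtf1, Lrig2, Tmem167b and Cdc14a. Sike1, a suppressor of the innate immune kinase IKK-epsilon, had 66.2 and 67.7 CPM in InsDel7to10 and 34.4 and 36.4 CPM in InvClone2 (log2 fold change 0.92 ± 0.12, edgeR adjusted p = 0.0226). Sort1, which encodes the sorting receptor sortilin, had 355 and 402 CPM against 214 and 207 CPM (0.85 ± 0.11, adjusted p = 0.0226). Car14, a membrane carbonic anhydrase gene, had 213 and 204 CPM in InsDel7to10 and 113 and 98.5 CPM in InvClone2 (0.98 ± 0.14, adjusted p = 0.0307). Setdb1, a histone H3 lysine methyltransferase gene, had 229 and 269 CPM in InsDel7to10 and 159 and 157 CPM in InvClone2 (0.65 ± 0.11, adjusted p = 0.0451). Arnt, the partner of HIF and of the aryl hydrocarbon receptor, had 106 and 120 CPM in InsDel7to10 and 71.8 and 70.3 CPM in InvClone2 (0.67 ± 0.11, adjusted p = 0.0451).

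The segment also holds Notch2, a receptor of the Notch pathway, which had 341 and 337 CPM in InsDel7to10 and 210 and 199 CPM in InvClone2, a log2 fold change of 0.73 ± 0.14 that missed the threshold (edgeR adjusted p = 0.0850). Nras and Mcl1, a small GTPase gene and an anti-apoptotic gene chosen after their values were seen, had adjusted p of 0.0557 and 0.0608 and log2 fold changes of 0.78 and 0.75. Within it 5 genes were lower at an unadjusted p under 0.05, which were Gstm3, Snx7, S100a10, Sprr2a3 and Gm43696. They averaged 3.68 CPM or less in InsDel7to10 and 6.25 CPM or less in InvClone2. S100a10 and Sprr2a3 lie below 94 Mb.

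The sequences before the start of 3 genes past the threshold are shown so that the segment's members can be set beside a gene elsewhere. They are the 250 bases upstream of the start in RefSeq, on GRCm38.p6 and read 5′ to 3′ on the gene's strand. Capitals mark GGGCGG, the core of GC boxes, and CCAAT, each on either strand, so that CCAAT on the other strand reads ATTGG. Arnt is at chr3:95434140-95434389 on the plus strand, Car14 at chr3:95904686-95904935 on the minus strand and Wapl at chr14:34673678-34673927 on the plus strand.
Arnt: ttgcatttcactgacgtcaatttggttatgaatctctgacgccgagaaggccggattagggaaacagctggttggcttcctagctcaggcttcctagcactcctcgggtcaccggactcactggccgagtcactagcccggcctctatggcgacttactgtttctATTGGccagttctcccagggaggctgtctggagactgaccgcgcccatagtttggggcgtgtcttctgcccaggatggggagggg
Car14: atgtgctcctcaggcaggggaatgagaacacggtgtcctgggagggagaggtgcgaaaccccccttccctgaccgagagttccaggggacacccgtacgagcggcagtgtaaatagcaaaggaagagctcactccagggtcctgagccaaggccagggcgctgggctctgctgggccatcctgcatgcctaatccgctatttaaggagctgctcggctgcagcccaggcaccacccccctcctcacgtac
Wapl: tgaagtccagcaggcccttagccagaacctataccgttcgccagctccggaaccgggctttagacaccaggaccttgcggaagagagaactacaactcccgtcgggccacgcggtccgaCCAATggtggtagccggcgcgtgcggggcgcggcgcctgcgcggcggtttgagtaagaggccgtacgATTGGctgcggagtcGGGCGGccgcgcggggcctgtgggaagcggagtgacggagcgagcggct
Wapl has 1 GGGCGG and 2 CCAAT, Arnt has 1 CCAAT, and Car14 has no match to these letters in its window. GGGCGG is in 32.9% of 27025 promoters of the table, 50.5% of the 182 found for tested segment genes and 5 of the 11 found for segment genes past the threshold. CCAAT is in 34.5%, 33.5% and 5 of 11 of these promoters. The segment genes past the threshold therefore shared neither motif throughout. The share over all promoters counts genes whether tested or not, and a share over all tested genes was not computed. Whether the segment differs from other tested genes in these motifs was thus not tested.

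No gene of the 14 tissue marker lists passed the threshold, so what follows describes levels beside the background. Lists and examples were chosen with earlier results known, and members named beyond the pair of smallest unadjusted p in each list were chosen after their values were seen. In whole gastruloids, fewer cells of a type and less RNA per cell cannot be told apart. Of 22 endoderm and epithelium genes tested none was positive, and the median log2 fold change was -2.36 (-2.33 with genes at 0 counts in a line set to the limit of 3 counts over that line). The InsDel7to10 libraries were below both InvClone2 libraries for 16 of the 22, against 18% of all genes tested. Summed over the list they had 138 and 113 CPM, against 257 and 496 CPM in InvClone2 and 164 to 690 CPM in the other 14 libraries at 120h.

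The defining endoderm factors Sox17 and Foxa2 were low in the compared libraries. Much of the sum came from a single epithelial gene, Dsp, which encodes desmoplakin of the desmosome. Dsp had 52.3 and 70.6 CPM of the summed 138 and 113 CPM in InsDel7to10. In InvClone2 it had 112 and 157 CPM of 257 and 496 CPM (log2 fold change -1.13 ± 0.34, edgeR adjusted p = 0.336). Cldn4, a tight junction gene, had 1.98 and 0.477 CPM against 6.72 and 11.8 CPM (-2.95 ± 0.83, adjusted p = 0.283). The adhesion gene Epcam had 8.50 and 4.62 CPM in InsDel7to10 and 15.4 and 27.8 CPM in InvClone2, and the keratin gene Krt8 had 3.57 and 1.29 CPM against 8.92 and 23.2 CPM. Sox17, a defining endoderm factor, overlapped, with 3.90 and 0.524 CPM in InsDel7to10 and 0.686 and 5.80 CPM in InvClone2. Foxa2 also overlapped, with 1.54 and 0.286 CPM against 1.33 and 7.60 CPM. In these genes InvClone2 replicate 2 was above replicate 1.

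Pluripotency and germ cell genes followed the same order. Of 20 tested, 19 were negative and 17 were lower in both InsDel7to10 libraries, against 18% of all genes tested. The median log2 fold change was -2.85 (-2.36 at the limits). Pou5f1, which encodes the pluripotency factor OCT4, had 0.549 and 0.0953 CPM in InsDel7to10 and 4.21 and 8.70 CPM in InvClone2 (adjusted p = 0.318 in edgeR). Dppa4, expressed in pluripotent and germ cells, had 0.0549 and 0.0477 CPM against 1.24 and 2.39 CPM (adjusted p = 0.135). Tfap2c, a germ cell factor, had 0.384 and 0.381 CPM in InsDel7to10 and 1.74 and 4.66 CPM in InvClone2 (adjusted p = 0.259). The summed level of the list was 26.2 and 19.2 CPM in InsDel7to10, against 54.7 and 88.8 CPM in InvClone2 and 22.8 to 99.8 CPM in the other 14 libraries at 120h. All these genes were at low levels in both lines.

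Presomitic mesoderm and clock genes stood on the other side, with 14 of 16 positive and a median log2 fold change of 0.96. Both InsDel7to10 libraries were above both InvClone2 libraries for 11 of the 16, against 15.3% of all genes tested. Mesp2, which sets the segment border, had 26.3 and 19.6 CPM in InsDel7to10 and 9.24 and 5.33 CPM in InvClone2 (log2 fold change 1.66 ± 0.38, edgeR adjusted p = 0.141). Its repressor Ripply2 had 6.58 and 4.10 CPM against 1.60 and 0.784 CPM (2.17 ± 0.55, adjusted p = 0.197). The Notch ligand gene Dll1 had 346 and 252 CPM in InsDel7to10 and 181 and 148 CPM in InvClone2. The genes that mark the unsegmented posterior mesoderm did not separate: Tbx6 had 58.5 and 22.2 CPM against 25.9 and 27.1 CPM, and Msgn1 had 10.4 and 6.10 CPM against 7.13 and 6.70 CPM. Dkk1, a secreted Wnt inhibitor, had 1.21 and 0.763 CPM in InsDel7to10 and 3.02 and 3.92 CPM in InvClone2. Summed over the list, InsDel7to10 had 1470 and 984 CPM, InvClone2 had 742 and 655 CPM, and the other 14 libraries at 120h had 476 to 1055 CPM. The list's median log2 CPM overlapped between the lines, with 5.99 and 4.51 in InsDel7to10 and 4.63 and 4.66 in InvClone2.

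Somite genes had a median log2 fold change of 0.46, and 7 of 12 were higher in both InsDel7to10 libraries, against 15.3% of all genes tested. Uncx, a marker of the posterior part of each somite, had 106 and 23.4 CPM in InsDel7to10 and 19.3 and 15.9 CPM in InvClone2, a log2 fold change of 1.88 ± 0.54 that was 0.42 without InsDel7to10 replicate 1. The forkhead gene Foxc1 had 195 and 121 CPM against 73.8 and 92.6 CPM (log2 fold change 0.93 ± 0.29, edgeR adjusted p = 0.353). Of dermomyotome and myogenic genes 9 of 11 were positive, with a median of 0.48, and Pax7, a factor of muscle and dorsal neural progenitors, had 38.7 and 41.5 CPM in InsDel7to10 and 18.0 and 18.9 CPM in InvClone2 (adjusted p = 0.424). The sclerotome and tendon list had a median of 0.049, and its tendon factor Scx had 11.5 and 3.38 CPM against 1.83 and 2.86 CPM.

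Neural progenitor genes divided the InsDel7to10 replicates. Their median log2 fold change was 1.03, and 3 of 18 were higher in both libraries, a share near the 15.3% of all genes tested. The summed level was 367 and 124 CPM in InsDel7to10 and 170 and 109 CPM in InvClone2, with 90.6 to 444 CPM in the other 14 libraries at 120h. Sox3, a factor of neural progenitors, had 53.5 and 5.62 CPM in InsDel7to10, on either side of InvClone2 at 20.4 and 10.7 CPM. Endothelial and blood genes were divided by replicate in both lines, with sums of 105 and 40.1 CPM in InsDel7to10 and 53.7 and 184 CPM in InvClone2. Neuron genes had a median of 0.066, and intermediate mesoderm genes one of -0.17. Of notochord genes, Noto had 0 and 0 CPM in InsDel7to10 and 0.0457 and 1.06 CPM in InvClone2. The cardiac list had a median of -0.70, and its sums of 25.4 and 13.1 CPM in InsDel7to10 and 15.9 and 28.4 CPM in InvClone2 overlapped. For neural crest genes the median was -0.98, and -0.14 at the limits.

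**Figure D5:**
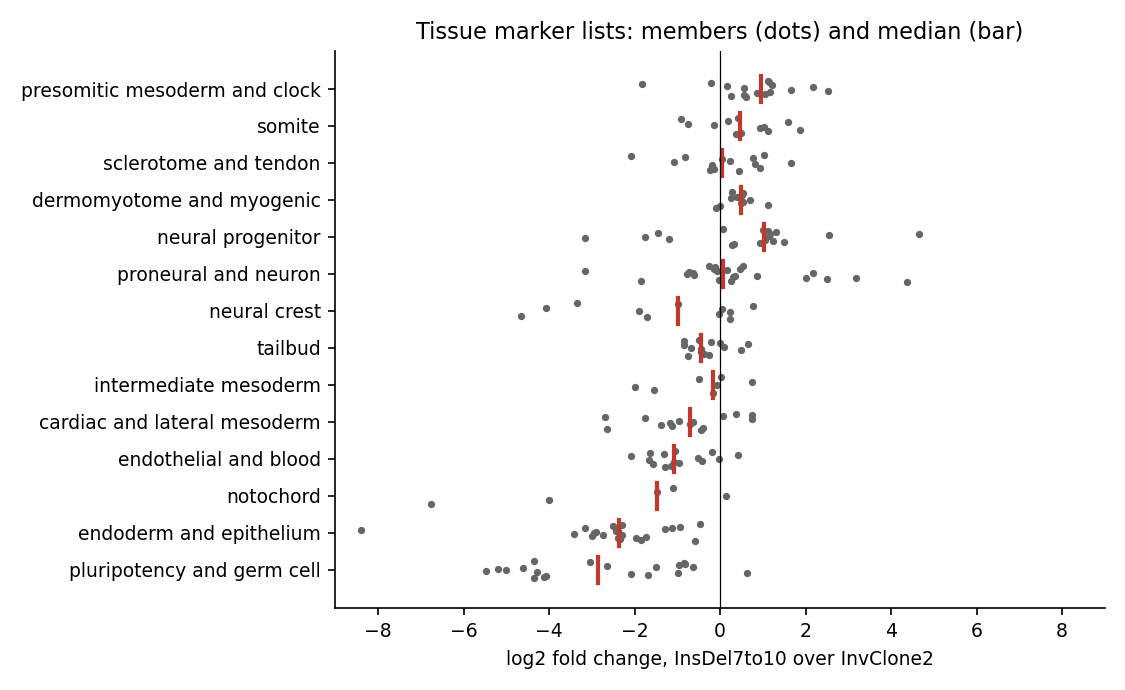
Log2 fold change of InsDel7to10 over InvClone2 for the tested members (dots) of 14 tissue marker lists, with a bar at each list's median. The bars run down from 0.96 for presomitic mesoderm and 1.03 for neural progenitors to -2.36 for endoderm and epithelium and -2.85 for pluripotency and germ cell genes; no dot passed the threshold.

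Tailbud genes had a median log2 fold change of -0.44, with 4 of 15 positive. Wnt5b, a ligand gene, had 15.4 and 13.3 CPM in InsDel7to10 and 26.7 and 24.6 CPM in InvClone2 (-0.84 ± 0.25, edgeR adjusted p = 0.295). Cyp26a1, which breaks down retinoic acid at the tail tip, had 8.45 and 8.29 CPM against 15.4 and 14.7 CPM (-0.84 ± 0.33, adjusted p = 0.467). Neither gene's groups overlapped. Of the 15 genes, 6 did not overlap with InsDel7to10 lower and 0 with it higher, against 18% and 15.3% of all genes tested. Lin28a and Lin28b encode RNA-binding proteins that hold back developmental timing. Lin28a had 473 and 534 CPM in InsDel7to10 and 792 and 566 CPM in InvClone2, and Lin28b had 128 and 157 CPM against 207 and 169 CPM (adjusted p = 0.556 and 0.534). Both were lower in both InsDel7to10 libraries without passing the threshold. They were the 2 of 9 trunk to tail timing genes tested for which this was so, against 18% of all genes tested.

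The 7 posterior Hox genes of the other clusters that were tested overlapped between the lines. Of all genes tested, 15.3% did not overlap with InsDel7to10 higher and 18% with it lower. Overlap says little for members with few counts. Hoxd13 had 5 and 2 counts in InsDel7to10 and 3 and 2 in InvClone2, and Hoxc11 had 0 and 0 against 2 and 0. Among the 7, Hoxc10 had 10.8 and 22.4 CPM in InsDel7to10 and 41.7 and 5.10 CPM in InvClone2. Of the 18 genes of groups 1 to 9, 15 were positive with a median of 0.32, and 5 did not overlap, each higher in InsDel7to10, against 15.3% of all genes tested. Among these 5, Hoxd3 had 46.8 and 33.6 CPM in InsDel7to10 and 23.9 and 27.8 CPM in InvClone2, and Hoxa2 had 28.5 and 27.6 CPM against 17.7 and 21.2 CPM (adjusted p = 0.424 each, edgeR).

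Signalling pathways gave no call either. Of 19 Notch pathway genes 16 were positive with a median of 0.36, and 1 of them, Notch2, lies in the chromosome 3 segment. Nrarp, a feedback inhibitor and target of Notch, had 258 and 139 CPM in InsDel7to10 and 98.5 and 73.4 CPM in InvClone2 (1.21 ± 0.36, edgeR adjusted p = 0.327). Heyl, a target gene of Notch, had 42.0 and 83.6 CPM against 36.9 and 31.0 CPM. Sufu, the negative regulator that holds GLI factors in the Hedgehog pathway, was the pathway gene nearest to the threshold. It had 120 and 114 CPM in InsDel7to10 and 66.7 and 65.9 CPM in InvClone2, with replicates close together in both lines (0.82 ± 0.15, edgeR adjusted p = 0.0591). Its list did not share this direction: the Hedgehog median was -0.18, with 5 of 13 positive.

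In the BMP and TGF beta list, Lefty2, an inhibitor of Nodal, had 0.220 and 0.0477 CPM in InsDel7to10 and 2.29 and 4.43 CPM in InvClone2 (edgeR adjusted p = 0.233). Bmp7 had 16.7 and 16.9 CPM against 24.0 and 27.1 CPM (adjusted p = 0.291). Neither gene's groups overlapped. Of the list's 25 genes, 8 did not overlap with InsDel7to10 lower and 3 with it higher, against 18% and 15.3% of all genes tested. The medians of the FGF, Wnt, retinoic acid and BMP lists were -0.063, -0.30, -0.17 and -0.15. Among guidance genes, Efnb2, an ephrin ligand gene, had 253 and 318 CPM in InsDel7to10 and 188 and 169 CPM in InvClone2 (0.68 ± 0.18, adjusted p = 0.245). The Polycomb list had a median of 0.17, with 14 of 19 positive. Its member of smallest p went the other way. This was Jarid2, a partner of the PRC2 complex (-0.77 ± 0.24, edgeR adjusted p = 0.335). It had 88.0 and 99.9 CPM in InsDel7to10 and 170 and 152 CPM in InvClone2.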

How the data were processed

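Polyadenylated RNA was measured in 26 libraries of 15 groups; line, stage, replicate number and library name came from the labels. The authors deposited raw, whole-number counts per gene. Deposited FPKM came from Cufflinks 2.2.1, and cutadapt 1.18, STAR 2.7.10a and build mm10 are named in the submitters' processing notes. The counter is named only by the table, as HTSeq, and no label states its strand setting or annotation, so overlapping and antisense genes and near-identical copies are uncertain. Of the columns, 8 (4 in each file) matched no sample and were not used.

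Counts were tested with edgeR 4.0.16 (R 4.3.3; robust quasi-likelihood, TMM, minimum count 10, Benjamini-Hochberg, threshold 0.05) in 1 fit of all 26 libraries with terms for group and library name, 17769 genes and 8 residual degrees of freedom. The contrast itself is between libraries of the same library name. SE is the log2 fold change divided by the root of F. CPM are counts over the TMM-adjusted library size, and a count of 0 allows up to 3 counts, or 0.118 to 0.165 CPM in the 4 libraries, counting error only. The fit was tested on simulated data, whose spread was set and may differ from that of the libraries. It recovered 32 of 91 genes set at an absolute log2 fold change of 1 (35.2%) and 109 of 109 set at 2. There were 5 false calls among 17769 genes.

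Members and lists were chosen with earlier results of these data known. Named were the HoxB genes; up to 15 genes each way past the threshold with no overlap and a mean of at least 1 CPM; 8 segment genes of smallest adjusted p; the Y-linked genes and Xist; and, in each of 37 lists, up to 4 members past the threshold or the 2 of smallest unadjusted p. Results were recomputed with DESeq2 1.42.0, with its size factors, with other filters and terms, subsets of libraries, each replicate left out and, chosen after seeing the data, a fit without 2 InvClone1 libraries of deviating quality and the crossed replicate numbers. A few genes that the rule takes are not reported here. No genome was used.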

Additional observations from a re-analysis of the deposited data

How the results depend on the processing

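The 25 genes past the threshold, and the 9 outside the chromosome 3 segment and the Y, numbered 161 and 100 with DESeq2 and 554 and 493 without the filter on low counts. Both counts were 0 without the library term, in the 10 ISML_third libraries alone and in the 4 compared libraries alone; the subsets hold fewer samples, and otherwise the cause was not tested. Leaving out 1 replicate gave 0 to 295 genes past the threshold and 0 to 256 outside the segment. Without InsDel7to10 replicate 1 the counts were 295 and 256, without its replicate 2 they were 155 and 128, and without either InvClone2 replicate both were 0; the lone library is then assumed to vary like the other groups. Without the 2 InvClone1 libraries of deviating quality (replicate 2 at 120h and at 144h) they were 17 and 5.

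Same-numbered replicates of the 2 lines deviated in opposite directions (correlation -0.33 over 12978 genes), so equal numbers were not taken as pairs. With InsDel5to10 the correlation was -0.22 for InsDel7to10 and 0.47 for InvClone2. The main fit has no replicate term, and what the replicates share across lines was not tested. With a replicate block 8 genes passed, and 3 outside the segment. With crossed replicate numbers 40 and 15 passed, a fit chosen after seeing the data. Shared with the 25 were 25 of the DESeq2 calls, 23 and 18 of those without InsDel7to10 replicate 1 or 2, and 7 of those with the block.

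Hoxb13 was higher in all 15 alternatives and passed the threshold with DESeq2 (2.27), without the filter (2.27) and without InsDel7to10 replicate 2, with 1.64 to 2.71 when 1 replicate was left out. The segment's median of 0.52 was 0.56 in the ISML_third libraries, 0.57 in the 4 libraries alone and with a minimum count of 50, 0.21 without the filter and 0.48 between 90 and 120 Mb, and 0.48 to 0.56 with 1 replicate left out.

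Directions turned for 9 named genes, none past the threshold, and only with 1 replicate left out. Their log2 fold changes then ran between -0.45 and 0.53 for Hoxb1, -0.85 and 0.25 for Hoxb9, -0.043 and 0.70 for Hoxb4, -0.16 and 0.33 for Hoxb8, and -0.32 and 1.17 for Hoxb2. They ran between -0.14 and 1.33 for Hoxd13, -3.68 and 0.37 for Erg, -0.10 and 1.52 for Ankrd37, and -0.82 and 0.014 for mt-Nd6. Without InsDel7to10 replicate 1 the signs of Hoxb1, Hoxb4, Hoxb8, Hoxb2, Hoxd13 and Ankrd37 turned, without InvClone2 replicate 2 those of Hoxb1, Hoxb8 and Erg, and without InvClone2 replicate 1 those of Hoxb9 and mt-Nd6. Of the 37 lists, 26 moved their median beyond the replicate spread at least once. With 2 libraries a line, differences of genes under about 1 CPM rest on few counts.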

Other observations

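Several groups of genes that no comparison above describes were read out the same way, and none had a member past the threshold. Among immediate early and heat shock genes the median log2 fold change was 0.025. Jund, an AP-1 subunit gene, had 110 CPM in replicate 1 of InsDel7to10 and 18.5 CPM in replicate 2, against 13.3 and 17.4 CPM in InvClone2 (edgeR adjusted p = 0.327). Egr1, another early response gene, had 11.5 and 11.96 CPM in InsDel7to10 and 4.89 and 3.41 CPM in InvClone2, with replicates close together (adjusted p = 0.416). The replication and mitosis list had a median of 0.028, p53 targets one of 0.066, and glycolysis and hypoxia genes one of -0.058.

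The mitochondrially encoded genes had a median of -0.35, and summed to 6930 and 8605 CPM in InsDel7to10 and 10770 and 9264 CPM in InvClone2. Cadherins and protocadherins had a median of -0.51. Among them Pcdh7 had 3.68 and 4.43 CPM in InsDel7to10 and 8.96 and 8.55 CPM in InvClone2 (edgeR adjusted p = 0.444), and Cdh3, P-cadherin, had 3.35 and 3.38 CPM against 6.31 and 7.09 CPM (adjusted p = 0.406). Laminin gamma 1, Lamc1, had 229 and 239 CPM in InsDel7to10 and 296 and 289 CPM in InvClone2 (adjusted p = 0.443), in a list of matrix genes with a median of -0.25. Imprinted genes had a median of -0.0026. Igf2, a fetal growth factor gene, had 3.02 and 0.667 CPM in InsDel7to10 and 4.02 and 4.74 CPM in InvClone2 (adjusted p = 0.544).

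Of the Y-linked genes Ddx3y and Uty had 0 counts in all 4 libraries, Eif2s3y had 1 count in InsDel7to10 replicate 1, and Kdm5d had 1 count in InvClone2 replicate 2. Xist, the RNA of the inactive X chromosome, had 0.110 and 0.0953 CPM in InsDel7to10 and 0.183 and 0.235 CPM in InvClone2. Summed over these 5 genes, InsDel7to10 had 0.165 and 0.0953 CPM and InvClone2 had 0.183 and 0.274 CPM. The other 14 libraries at 120h had 0.104 to 164 CPM, with a median of 85.7 CPM. Genes of the X chromosome beyond 160 Mb had a median log2 fold change of 0.012 over 42 genes.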
